A study of Mus musculus and Rattus norvegicus with 30 samples.

Results

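The comparison described here set pressure-overloaded mouse hearts given the compound 332 against pressure-overloaded hearts given vehicle, with 5 libraries in each group. Its 10 libraries were chosen by their labelled group, out of 18 mouse heart libraries and 30 libraries in the whole series, and no measured value entered the choice. The series title calls its compounds pan-ERR agonists, that is, agonists of all 3 forms (alpha, beta, gamma) of the estrogen-related receptor, and the remaining libraries came from sham-operated mice and from rat myocytes. The mice were labelled wild type (WT), and strain, sex, age and dose were not given in the labels. TAC_vehicle hearts had transverse aortic constriction (TAC), a surgical narrowing of the aorta that makes the left ventricle pump against high pressure. TAC_332 hearts had the same operation, after which 332 was injected into the abdominal cavity (IP) over 6 weeks. Sham_vehicle (3 libraries) and Sham_332 (5 libraries) were the operated controls without constriction, and RNA in all 4 groups came from the left ventricle.

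The ERRs are orphan nuclear receptors that bind DNA near genes of mitochondrial respiration and fatty acid oxidation and work with the coactivators PGC-1 alpha and PGC-1 beta. In the heart they maintain the oxidative metabolism that fuels contraction. A failing, pressure-overloaded ventricle typically loses transcripts of fatty acid oxidation and gains transcripts of foetal contractile proteins, natriuretic peptides and extracellular matrix.

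Libraries held 11375917 to 16599930 estimated counts, and 14047 genes were tested. By the lane in the file names, replicates 1 to 3 of each group (L003 or L004) were taken as a first run. Replicates 4 and 5 (L001) were taken as a second, and Sham_vehicle was in the first run only. Sham_332 replicates 1 to 3 were on L003 and all other first-run libraries on L004, a difference that the run term does not remove. Mitochondrially encoded transcripts took 28.6% to 34.8% of the counts of TAC libraries in the first run and 23.5% to 28.0% in the second, and the run was a term of the fit from which all calls in the text are taken unless another setting is named. After removal of the run, TAC_332 replicate 3 stood apart on the second principal component (7.69% of the variance), at −43.1 against −12.5 to 15.1 for all other mouse libraries. The labels do not say whether each library is a separate animal, so p-values measure the spread between libraries.

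With 332, 60 of the 14047 genes passed the test in overloaded hearts (0.427%), 19 of them higher (0.135%) and 41 lower (0.292%). Changes were small: the absolute log2 difference had a median of 0.60 over these 60 genes, and 1 gene rose and 10 fell by at least 2-fold. By the signs of the fitted differences 7344 of all genes tested lay above 0, with a median of 0.01. An unadjusted p under 0.05 was reached by 1779 genes (12.7%). The genes that passed included a potassium channel gene and a transcription factor gene of the heart among the rises, and 4 of 22 chaperones of the endoplasmic reticulum, 1 of 18 collagens and 1 of 16 macrophage markers among the falls. No gene of the ERR family, of fatty acid oxidation or of the respiratory chain passed. All calls in the text are from edgeR's quasi-likelihood test at a Benjamini-Hochberg adjusted p of 0.05, and levels are CPM, in which counts are divided by the scaled size of each library. The spread was estimated over all 18 mouse libraries. Fitted alone, the 10 TAC libraries gave 30 calls, 21 of them among the 60.

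**Figure D1:**
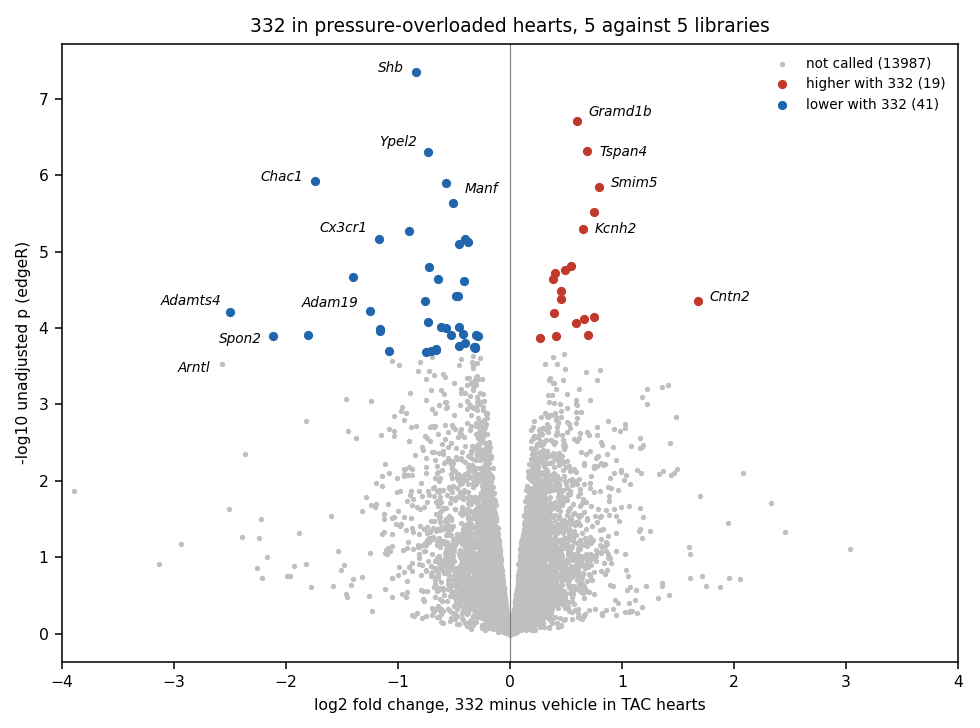
Each point is a gene, with the log2 fold change of 332 against vehicle in TAC hearts on the x axis and the negative log10 of edgeR's unadjusted p on the y axis; 16 genes beyond a log2 change of 4 in size are not drawn. The 19 genes that rose are red and the 41 that fell are blue, most of them within a log2 change of 1, and Arntl, a clock gene with an adjusted p of 0.0572, lies far to the left without passing.

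The lowest adjusted p belonged to Shb (ENSMUSG00000044813.16), which encodes an SH2-domain adaptor protein acting downstream of tyrosine kinase receptors. Shb stood at 20.1, 18.4, 19.5, 23.8 and 25.6 CPM in the 5 TAC_vehicle libraries and at 12.2, 13.6, 10.3, 12.7 and 10.7 CPM in the 5 TAC_332 libraries. Every TAC_332 value lay below every TAC_vehicle value, and the fall was 0.84 on the log2 scale (SE 0.10, adjusted p = 0.000628). Sham hearts held 10.8 ± 1.05 CPM (SD, n = 3) with vehicle and 11.5 ± 1.23 (n = 5) with 332. Ypel2, a member of the yippee-like family, had 20.1, 23.4, 22.6, 21.0 and 25.4 CPM in TAC_vehicle and 14.8, 14.6, 13.7, 13.1 and 11.7 CPM in TAC_332. These ranges did not overlap either, at a log2 change of −0.73 (SE 0.10, adjusted p = 0.00174). In sham hearts Ypel2 was at 13.5 ± 0.620 CPM with vehicle (SD, n = 3).

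Among the rises, Gramd1b, which encodes a carrier of cholesterol from the plasma membrane to the endoplasmic reticulum, had 23.6, 25.5, 25.9, 24.0 and 18.8 CPM in TAC_vehicle and 39.6, 37.0, 38.9, 34.1 and 28.5 CPM in TAC_332. The 2 ranges were separate, with a log2 rise of 0.59 (SE 0.08, adjusted p = 0.00139). The counts of Gramd1b were spread over 15 annotated transcripts, and the transcript Gramd1b-203 took 29.9% ± 2.19 of them in TAC_vehicle and 20.0% ± 5.48 in TAC_332 (SD, n = 5 each). On the length-scaled TPM values of the deposited files its mean was 2.71 ± 1.64 in TAC_vehicle and 2.50 ± 0.683 in TAC_332 (SD, n = 5 each), so the rise was seen in counts and not in TPM. Of 59 called genes with a given name, 57 had TPM means that differed in the same direction as the counts, Gramd1b and Fut2 being the 2 that did not. TPM values come from the same reads as the counts, so they are not independent support.

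Kcnh2, the potassium channel that carries the rapid delayed rectifier current of repolarisation, stood at 32.5, 28.9, 23.6, 33.4 and 24.9 CPM in TAC_vehicle and at 44.7, 49.8, 38.6, 39.9 and 52.6 CPM in TAC_332. Every treated library was above every vehicle library, and the log2 rise was 0.65 (SE 0.10, adjusted p = 0.00697). Sham_vehicle hearts had 61.2 ± 2.26 CPM (SD, n = 3), above both TAC groups. Kcna5, the channel of the ultrarapid delayed rectifier current, moved the other way, from 16.9 ± 4.01 to 9.90 ± 1.85 CPM (SD, n = 5 each; log2 −0.76, SE 0.14, adjusted p = 0.0216), and its ranges overlapped. Sham_vehicle held 14.8 ± 2.02 CPM of Kcna5 (n = 3). Kcnh2 and Kcna5 were the only 2 of 28 genes for adult contraction, calcium handling and conduction that passed, 1 in each direction. Over all genes tested 0.135% were called higher and 0.292% lower. Among 21 cardiac transcription factors Tbx5, which is needed for chamber formation and the conduction system, was the only one called, at 9.46 ± 1.70 CPM with vehicle and 14.8 ± 3.03 CPM with 332 (log2 0.66, SE 0.13, adjusted p = 0.0311). Its level in Sham_vehicle was 21.4 ± 1.33 CPM (n = 3).

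Among called genes with ranges apart and a mean of 5 CPM or more, the other rises of the 12 largest were Smim5 (0.79), Arl4d (0.75), Slc46a3 (0.75), Frem2 (0.70), Tspan4 (0.69), Adora1 (0.59), Rgma (0.55), Fam78a (0.49), Ppat (0.45) and Zfp827 (0.45), each given as its log2 change. Tspan4 encodes a tetraspanin of migrating cells, Adora1 the adenosine A1 receptor that slows conduction, Rgma a coreceptor for bone morphogenetic proteins, and Ppat the first committed enzyme of purine synthesis. Tspan4 had 15.7, 15.05, 13.8, 12.1 and 13.2 CPM in TAC_vehicle and 20.4, 22.1, 27.1, 23.6 and 19.3 CPM in TAC_332, with no overlap and an adjusted p of 0.00174. Smim5, a small membrane protein gene, had 3.59, 3.55, 4.47, 4.05 and 4.73 CPM against 5.92, 6.42, 6.94, 7.06 and 8.96 CPM, also with no overlap (SE 0.12, adjusted p = 0.00289). Outside the rule for named genes, and singled out after their values were seen, were Tfeb, the master regulator of lysosome genes (log2 0.39, adjusted p = 0.0278), and Cntn2, an adhesion molecule of the conduction system (log2 1.68, from 0.366 to 1.17 CPM, adjusted p = 0.0216). Tfeb was the only called gene among 41 autophagy, mitophagy and lysosome genes, whose median log2 change was 0.01, beside 0.135% called higher of all genes.

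**Figure D2:**
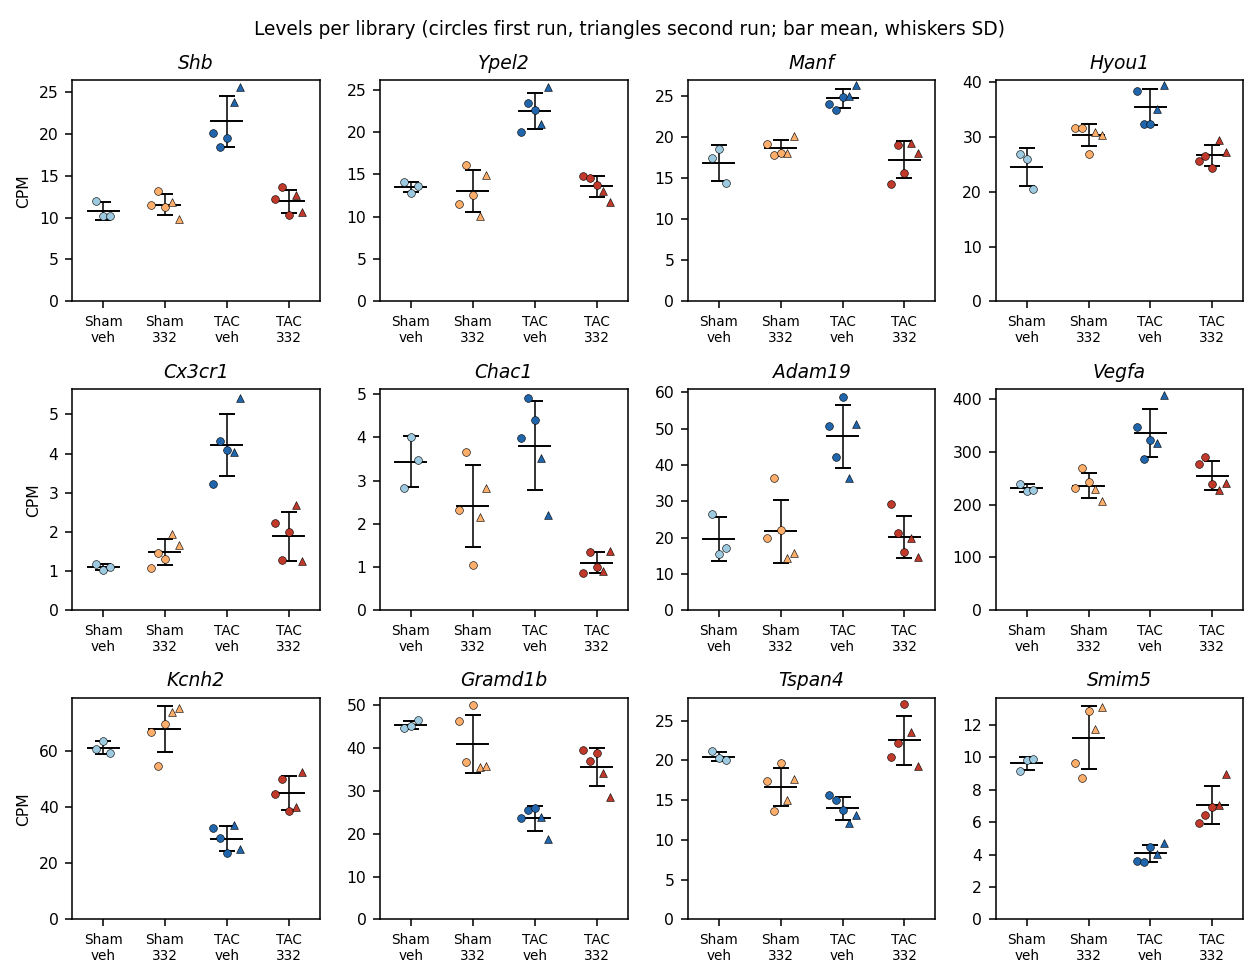
CPM of 12 genes in each library, by group on the x axis (veh is vehicle); circles are the first run and triangles the second, the bar is the mean and the whiskers are 1 SD (n = 3 for Sham_vehicle, 5 for each other group). TAC_332 lies below TAC_vehicle without overlap for Shb, Ypel2, Manf, Hyou1, Cx3cr1, Chac1 and Adam19, above it without overlap for Kcnh2, Gramd1b, Tspan4 and Smim5, and overlaps it for Vegfa.

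Chaperones of the endoplasmic reticulum were the list with the most members called. They fold secreted and membrane proteins, and the unfolded protein response raises them together when misfolded protein builds up. Of 22 members tested 4 fell and none rose, beside 0.292% lower and 0.135% higher of all genes. A difference below 0 was found in 20 members, beside 6703 of all 14047 genes. The median log2 change was −0.23 beside 0.01 over all genes. In 7 of the 22 every TAC_332 library was below every TAC_vehicle library, which was so for 0.783% of all genes tested. An unadjusted p under 0.05 was reached by 17 of the 22, beside 12.7% of all genes. Summed over the list, the level was 1968 to 2183 CPM in TAC_vehicle and 1739 to 1880 CPM in TAC_332, without overlap, beside 1796 to 2005 CPM in Sham_vehicle.

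Manf, a secreted protein that binds the chaperone BiP, stood at 24.0, 23.3, 24.9, 25.0 and 26.3 CPM in TAC_vehicle and at 14.3, 19.1, 15.6, 19.3 and 18.1 CPM in TAC_332. The groups did not overlap (log2 −0.51, SE 0.08, adjusted p = 0.00406). Hyou1, a large chaperone that exchanges nucleotide on BiP, had 38.4, 32.4, 32.3, 35.1 and 39.4 CPM against 25.7, 26.6, 24.3, 29.5 and 27.2 CPM, again without overlap (log2 −0.41, SE 0.08, adjusted p = 0.0148). For Creld2, a partner of protein disulphide isomerases, the values were 10.2, 9.95, 9.82, 10.2 and 14.8 CPM with vehicle and 6.01, 5.51, 8.72, 7.84 and 7.91 CPM with 332. Creld2 fell by 0.61 (SE 0.13, adjusted p = 0.0355), and TAC_vehicle replicate 5 was its highest library. Hspa5, which encodes BiP itself, had 389, 377, 395, 404 and 426 CPM against 325, 343, 306, 289 and 338 CPM. The vehicle and treated ranges of Hspa5 were separate, at a log2 change of −0.31 (SE 0.07, adjusted p = 0.0469). In sham hearts the 332 differences of these genes were 0.11 for Manf, 0.27 for Hyou1, 0.15 for Creld2 and 0.15 for Hspa5, none of which passed. In the same order, their Sham_vehicle means were 16.8, 24.5, 6.25 and 359 CPM (n = 3).

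The next members by p did not pass: Pdia6 was at −0.25 (adjusted p = 0.0699) and Hsp90b1, the chaperone GRP94, at −0.24 (adjusted p = 0.102). Herpud1, a component of the machinery that removes misfolded proteins, had the highest value of the list at 0.29 (adjusted p = 0.405). TAC in vehicle hearts, a comparison that shares the TAC_vehicle libraries, gave 9 members higher and 1 lower, beside 13.5% and 12.8% of all genes. The log2 changes there were 0.51 for Manf, 0.50 for Hyou1, 0.73 for Creld2 and 0.13 for Hspa5, the last not called. The number of called members was 1 to 5 when single libraries were left out. It was 1 without TAC_332 replicate 5, without TAC_vehicle replicate 1 or without TAC_vehicle replicate 5, 2 without TAC_vehicle replicate 3, 7 with DESeq2, and 0 with a clock score in the fit. DESeq2 called 183 of all 14047 genes.

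The promoters of several of these genes hold the endoplasmic reticulum stress element, to which the transcription factors of the unfolded protein response bind. The motif, CCAAT and CCACG separated by any 9 bases, was searched on both strands of the 250 bases before each gene's start in the RefSeq promoter table (GRCm38.p6), a search chosen after these genes were seen to differ. It was found in 8 of the 20 chaperone genes with a promoter (40.0%), Hyou1 and Manf not being searched. Over all 10575 tested genes with a promoter it was in 17 (0.161%), those 8 included. The unfolded protein response raises genes of this list, so the share describes the list and not the response to 332. Among the 46 called genes with a promoter the motif was in 2 (4.35%). The windows below, chosen because their genes are the 2 called ones in which it was found and the next 2 by p that have 1 copy, run 5′ to 3′ on the gene's strand, and capitals mark the fixed letters of the element or of its reverse complement. They lie at chr15:88819505-88819553, chr2:34772010-34772058, chr12:17266476-17266524 and chr14:118937812-118937860, all on the plus strand.
Creld2: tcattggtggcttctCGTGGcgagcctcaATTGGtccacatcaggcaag
Hspa5: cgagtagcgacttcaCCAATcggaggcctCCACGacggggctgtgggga
Pdia6: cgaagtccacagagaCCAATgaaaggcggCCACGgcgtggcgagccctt
Dnajc3: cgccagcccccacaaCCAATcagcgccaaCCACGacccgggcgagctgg
A match describes these letters and does not show that a factor was bound. The ERR response element TCAAGGTCA was found in 0 of the 46 called genes with a promoter in the table and in 32 of the 10575 tested genes (0.303%). The shorter AAGGTCA was in 2 of the 46 (4.35%), Fam78a and Fam13a, and in 370 of the 10575 (3.5%).

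Beside the chaperones, 1 of 20 genes of the integrated stress response passed, while 0.292% of all genes were called lower. Chac1, an enzyme that degrades glutathione and a target of the transcription factor ATF4, had 3.97, 4.91, 4.40, 3.52 and 2.21 CPM in TAC_vehicle and 0.858, 1.35, 1.00, 0.918 and 1.38 CPM in TAC_332. It fell by 1.74 on the log2 scale (SE 0.26, adjusted p = 0.00289) without overlap, from a low level, and Sham_332 was at 2.41 ± 0.952 CPM (SD, n = 5) beside 3.43 ± 0.591 in Sham_vehicle (n = 3). The median of that list was −0.15. Chac1 falls outside the rule for named genes and was singled out after its values were seen, as were Vegfa, Cx3cr1, Adamts4, Spon2, Timp4, Tbx5, Kcna5 and the others named outside the largest changes.

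Of the gene lists for extracellular matrix, 1 of 18 collagens and none of 38 matricellular and other matrix genes passed. With 332, 0.135% of all genes were called higher and 0.292% lower, and 6703 of all 14047 had a difference below 0. Adam19, a membrane-anchored metalloprotease, stood at 50.8, 42.2, 58.6, 36.3 and 51.3 CPM in TAC_vehicle and at 29.3, 21.2, 15.97, 19.9 and 14.8 CPM in TAC_332. The groups did not overlap, at a log2 change of −1.25 (SE 0.22, adjusted p = 0.0278). Col5a3, a fibrillar collagen chain, had 28.1, 17.1, 28.7, 34.2 and 39.2 CPM against 16.8, 8.87, 11.8, 13.3 and 14.4 CPM, so that TAC_vehicle replicate 2 was close to the highest treated library. Its log2 change was −1.16 (SE 0.22, adjusted p = 0.0367). Col5a3 was the only one of 18 collagen genes called, the list's median was −0.24, and 16 members lay below 0. Among the 38 matricellular and other matrix genes, none of which passed edgeR's quasi-likelihood test, DESeq2 called 1, beside 183 of all 14047 genes. An unadjusted p under 0.05 was reached by 6, beside 12.7% of all genes, while 31 lay below 0 and the median was −0.23. The same 38 genes had 31 rises and 1 fall for TAC in vehicle hearts, with a median log2 change of 1.88, where 13.5% of all genes were called higher and 12.8% lower. Also called were Adamts4, an aggrecanase, from 1.58 ± 0.991 to 0.270 ± 0.107 CPM, Spon2, a matrix protein, from 4.19 ± 1.99 to 0.960 ± 0.170 CPM, and Timp4, an inhibitor of metalloproteases, from 22.5 ± 4.72 to 10.6 ± 2.80 CPM (SD, n = 5 each). Their log2 changes were −2.51, −2.11 and −1.09, those of Adamts4 and Spon2 at low levels. Adamts4 could not be tested in the first run alone. With single libraries left out, Adamts4, Spon2 and Timp4 stayed called in 5, 2 and 2 of 10 fits. In Sham_vehicle (n = 3) their means were 0.107, 1.02 and 25.5 CPM. In the other direction, Htra1, a secreted serine protease, and Frem2, an extracellular matrix protein, rose by 0.26 and 0.70 on the log2 scale (adjusted p = 0.0381 and 0.0367). DESeq2 gave no adjusted p for Adamts4 or Fut2.

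Among called genes with ranges apart and a mean of 5 CPM or more, other falls among the 12 largest were Pakap at −0.72, Banp at −0.65, Arid5b at −0.57, Nfil3 at −0.53 and Noc3l at −0.46. Arid5b encodes a DNA-binding protein with roles in fat cells and Noc3l a nucleolar protein. Arid5b had 30.8, 34.9, 32.0, 27.5 and 30.0 CPM in TAC_vehicle and 24.5, 22.9, 21.6, 20.0 and 15.9 CPM in TAC_332. Its ranges were separate (SE 0.09, adjusted p = 0.00289), and Sham_vehicle held 26.7 ± 1.35 CPM (n = 3). Pakap carries a merged annotation, and 2 gene identifiers share its symbol, so its value, which is that of ENSMUSG00000089945.14, is uncertain. Of all genes 0.292% were called lower, and among 22 angiogenesis and hypoxia genes only Vegfa, the main growth factor for blood vessels, passed. It had 346, 286, 322, 316 and 408 CPM with vehicle and 277, 290, 239, 227 and 241 CPM with 332, ranges that overlapped through TAC_332 replicate 2 (log2 −0.40, SE 0.09, adjusted p = 0.0438). Fbxo30, a ubiquitin ligase gene of muscle mass control, was the only one called of 13 ubiquitin ligase and atrophy genes (log2 −0.45, adjusted p = 0.00756). Abra, an actin-binding activator of serum response factor signalling, went from 131 ± 19.7 to 83.7 ± 17.5 CPM (SD, n = 5 each), while Sham_vehicle held 23.1 ± 3.90 CPM (n = 3).

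Most macrophage markers had values below 0 with 332, and 1 passed. Cx3cr1, the fractalkine receptor of resident macrophages, had 3.22, 4.33, 4.10, 4.05 and 5.43 CPM in TAC_vehicle and 2.23, 1.28, 2.01, 2.68 and 1.25 CPM in TAC_332. The 2 groups were apart (log2 −1.17, SE 0.20, adjusted p = 0.0075), and Sham_vehicle was at 1.11 ± 0.0657 CPM (n = 3). Of 16 macrophage markers Cx3cr1 was the only one called (3 with DESeq2), 15 lay below 0, 8 had an unadjusted p under 0.05, and the median log2 change was −0.34. Over all genes 0.292% were called lower and 12.7% had an unadjusted p under 0.05, while DESeq2 called 183 of the 14047 in either direction. The summed level of the 16 was 254 to 331 CPM in TAC_vehicle and 188 to 261 CPM in TAC_332, ranges that overlapped, beside 191 to 253 CPM in Sham_vehicle. In bulk tissue, fewer cells of a type and less RNA per cell cannot be told apart. Fcgr3, Mpeg1, Cd300ld and Lilr4b, all known from myeloid cells and singled out after their values were seen, also fell. Their log2 changes were −0.73, −0.66, −0.75 and −0.71 (edgeR adjusted p = 0.0333, 0.0469, 0.0484 and 0.0483), and only Cd300ld had ranges apart. With single libraries left out, these genes stayed called in 4, 2, 2 and 2 of 10 fits, in the same order. Fcgr3, Cd300ld and Lilr4b belong to families with near-identical copies, so their counts are uncertain.

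Red cell transcripts had higher values with 332 without any of them passing. The haemoglobin gene Hba-a1 stood at 359, 228, 346, 260 and 313 CPM in TAC_vehicle and at 554, 1107, 447, 703 and 706 CPM in TAC_332. Every treated library was higher (log2 1.22, SE 0.29, adjusted p = 0.0932). All 6 erythroid markers tested lay above 0 with an unadjusted p under 0.05 and a median of 1.18, 4 with ranges apart, which was so in this direction for 0.541% of all genes. None passed edgeR's quasi-likelihood test, and DESeq2 called 3, beside 183 of all 14047 genes. The erythroid sum was 532 to 822 CPM in TAC_vehicle, 1072 to 2688 CPM in TAC_332, 590 to 989 CPM in Sham_vehicle and 823 to 2100 CPM in Sham_332. The part of these transcripts in the other differences was not tested. Counts of the globin copies can be split between near-identical genes. The sums of all other cell type lists overlapped between TAC_332 and TAC_vehicle, those of neutrophil and lymphocyte markers at 6.67 to 8.80 against 7.36 to 10.3 CPM. Cardiomyocyte markers, the defining genes of the labelled tissue, were abundant in both groups, at 59820 to 75170 CPM with vehicle and 61640 to 85150 CPM with 332. Fibroblast markers summed to 2342 to 2870 and 2084 to 3244 CPM, and of the 8 epicardial and mesothelial markers none was called while the median was −1.86 at sums of 5.17 to 13.9 and 4.55 to 9.96 CPM.

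The receptors and the metabolic genes named by the study's title did not pass. Esrra (ERR alpha) stood at 72.3, 60.0, 65.1, 74.5 and 75.8 CPM in TAC_vehicle and at 69.4, 71.5, 74.6, 76.6 and 82.6 CPM in TAC_332, ranges that overlapped (log2 0.11, SE 0.06, adjusted p = 0.44). Esrrb (ERR beta) was at 0.03 (SE 0.08) and Esrrg (ERR gamma) at −0.12 (SE 0.12). The coactivator genes Ppargc1a and Ppargc1b, which encode PGC-1 alpha and PGC-1 beta, gave −0.30 (SE 0.19) and 0.20 (SE 0.13), and Perm1, a muscle regulator acting with them, −0.07 (SE 0.08). None of the 7 genes in that list had an unadjusted p under 0.05, and none was called with DESeq2. In sham hearts Esrra was at 73.4 ± 2.60 CPM with vehicle (n = 3) and 86.6 ± 3.95 with 332 (n = 5), a log2 difference of 0.18 (SE 0.07) that did not pass (adjusted p = 0.914).

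Of 34 genes for fatty acid uptake and oxidation 0 were called by edgeR's quasi-likelihood test or by DESeq2, and 0 had an unadjusted p under 0.05, with a median log2 change of 0.04 and 28 above 0. Cpt1b, the entry enzyme of the carnitine shuttle, had 495, 415, 443, 522 and 489 CPM with vehicle and 497, 508, 481, 387 and 541 CPM with 332 (log2 0.03, SE 0.08). Acadm, the medium-chain acyl-CoA dehydrogenase, had 696 ± 76.5 and 700 ± 112 CPM (SD, n = 5 each; log2 0.01, SE 0.09), and Pdk4, the kinase that closes off pyruvate oxidation, −0.18 (SE 0.43). The 24 genes of the TCA cycle had a median of −0.01, with 0 calls by either tool and 0 at an unadjusted p under 0.05.

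In complex I of the respiratory chain 36 of 37 nuclear-encoded subunits lay above 0 with a median of 0.12, 7 had an unadjusted p under 0.05, and 0 passed by either tool. Complexes II to V and cytochrome c gave 38 of 42 above 0, a median of 0.10, 7 at an unadjusted p under 0.05 and 0 that passed by either tool. Over all 14047 genes, 7344 lay above 0 and 12.7% had an unadjusted p under 0.05. The largest complex I value was 0.27 for Ndufa2 (adjusted p = 0.273), and no complex I gene had ranges apart. The complex I sum was 6478 to 8352 CPM in TAC_vehicle and 6461 to 9609 CPM in TAC_332, with TAC_332 replicate 5 the highest. Of the 13 genes of the mitochondrial genome 2 lay above 0 and the median was −0.08. For TAC in vehicle hearts, sharing the TAC_vehicle libraries, 23 of the 34 fatty acid genes fell (median −0.40), 32 of the 37 complex I subunits fell (median −0.37) and 38 of the 42 genes of the other complexes fell. Across all genes 26.4% were called in that comparison.

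**Figure D3:**
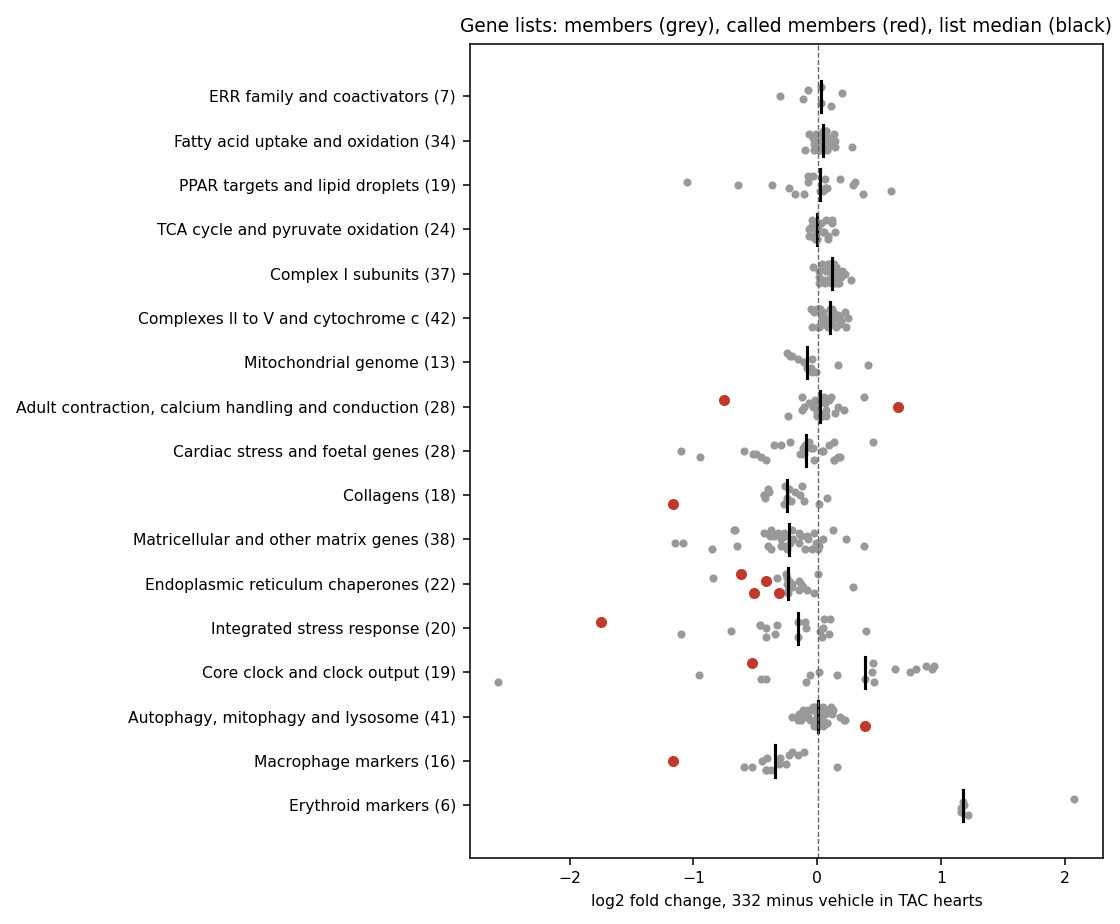
Log2 fold change of 332 against vehicle in TAC hearts (x axis) for each member of 17 gene lists (y axis, with the number of members tested); grey points did not pass, red points passed and the black bar is the list median. The chaperone list has 4 called members, all below 0, while the fatty acid and respiratory chain lists sit close to 0 without a called member.

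Markers of cardiac stress did not pass either. Nppa, which encodes atrial natriuretic peptide, had 498, 1770, 1292, 805 and 2055 CPM in TAC_vehicle and 708, 1052, 1614, 3233 and 683 CPM in TAC_332 (log2 0.13, SE 0.54). The values spread several-fold within each group. Nppb, which encodes B-type natriuretic peptide, had 402 ± 111 and 294 ± 54.3 CPM (SD, n = 5 each; log2 −0.46, SE 0.22, adjusted p = 0.414). Myh7, the foetal myosin heavy chain, was at −0.50 (SE 0.44), with TAC_332 replicate 4 at 5306 CPM and the other 4 treated libraries at 927 to 1461 CPM. Myh6, the adult one, was at −0.00 (SE 0.10). Acta1 gave 0.05 (SE 0.35), Col1a1 −0.27 (SE 0.26) and Postn, a marker of activated fibroblasts, −0.25 (SE 0.49). Of 28 cardiac stress genes 0 passed by either tool, 4 had an unadjusted p under 0.05, beside 12.7% of all genes, and the median was −0.09. The same list had 25 rises for TAC in vehicle hearts (median 1.57), beside 13.5% of all genes.

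Of 19 clock and clock output genes 3 had ranges apart between the groups, 1 with 332 above and 2 with 332 below, beside 1.32% of all genes in either direction. The cell-autonomous clock of the heart runs through Arntl (BMAL1) and Clock, which drive Per, Cry and output genes such as Dbp in a daily cycle. Arntl had 8.70, 5.23, 17.1, 7.05 and 14.3 CPM in TAC_vehicle and 2.23, 1.41, 2.24, 2.19 and 0.922 CPM in TAC_332. These did not overlap, at a log2 difference of −2.58 (SE 0.53) with an adjusted p of 0.0572. In the opposite direction Per3 had 24.2, 29.5, 11.1, 29.0 and 10.7 CPM with vehicle and 37.8, 40.6, 39.5, 35.4 and 48.5 CPM with 332 (log2 0.95, SE 0.28, adjusted p = 0.172). Per2 was at 0.92, Dbp at 0.75 and Tef at 0.62, none passing. Of the 19 genes 1 passed, the repressor Nfil3 at −0.53 (SE 0.11, adjusted p = 0.0367), beside 0.292% called lower of all genes. An unadjusted p under 0.05 was reached by 14, beside 12.7% of all genes. TAC in vehicle hearts, a comparison that shares the TAC_vehicle libraries, gave 6 of the 19 higher and 8 lower. Of all genes 13.5% were called higher and 12.8% lower there, and the median log2 change of the 19 was −0.70.

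A clock score, the first principal component of these 19 genes (84% of their variance) with the run removed, ran from −0.835 to 0.0980 in TAC_332 and from 0.579 to 2.20 in TAC_vehicle. The 2 groups did not overlap on it, Sham_vehicle lay between −1.26 and −0.681, and Sham_332 between −0.957 and 0.860. The time of day at collection is not in the labels, and since score and treatment separate the same 10 libraries, their parts in the differences cannot be told apart. With the score as a term, 0 genes passed edgeR's quasi-likelihood test (lowest adjusted p among the 60 = 0.252), 974 had an unadjusted p under 0.05, and DESeq2 called 1 gene, not among the 60. All 60 genes kept their sign under that term, and 49 of them had an unadjusted p under 0.05. Since the 60 genes were chosen on the same libraries, neither count is independent support. Their median absolute log2 change went from 0.60 to 0.44 and their median SE from 0.105 to 0.151. By gene, Shb went from −0.84 to −0.66, Chac1 from −1.74 to −1.69, Manf from −0.51 to −0.48, Hspa5 from −0.31 to −0.33, Kcnh2 from 0.65 to 0.28 and Adam19 from −1.25 to −0.66. Adamts4 went from −2.51 to −0.79 and Spon2 from −2.11 to −0.59, while Timp4 stayed at −1.09.

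**Figure D4:**
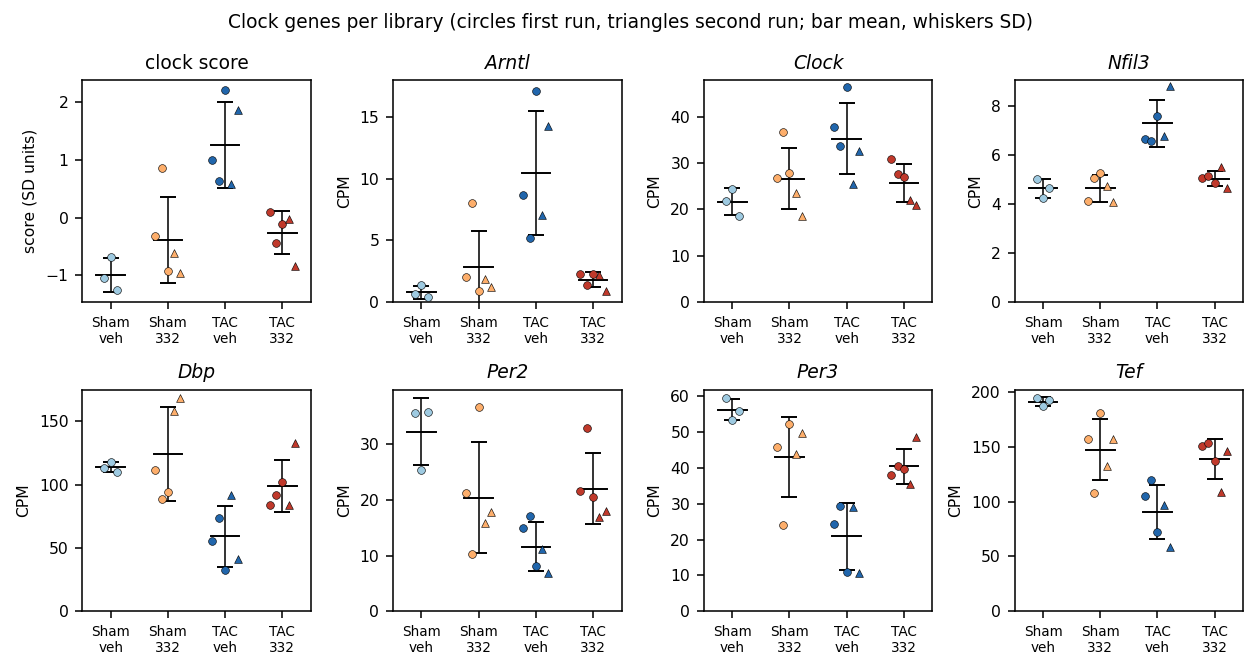
The clock score and CPM of 7 clock genes in each library, by group on the x axis; circles are the first run, triangles the second, bars the mean and whiskers 1 SD (n = 3 for Sham_vehicle, 5 for each other group). The score and Arntl separate TAC_332 from TAC_vehicle completely, with Arntl at 5.23 CPM or more with vehicle and at 2.24 CPM or less with 332.

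Whether 332 acted differently in overloaded and sham hearts was tested as a difference of the 2 effects, which share no library. Of these, the sham effect carries the lane difference between Sham_332 and Sham_vehicle. Of all genes 9 passed (0.0641%), 3 with a higher value in TAC (0.0214%) and 6 with a lower one (0.0427%). Slc46a3, a lysosomal transporter gene, had the largest positive difference at 1.36 (SE 0.23, adjusted p = 0.0438), from an effect of 0.75 in TAC and −0.61 in sham. Its levels were 5.07 ± 1.25 and 8.49 ± 1.04 CPM in TAC_vehicle and TAC_332, and 11.6 ± 0.777 and 7.14 ± 1.77 CPM in Sham_vehicle and Sham_332. Tspan4 differed by 0.94 and Gramd1b by 0.64. On the other side were Clock at −0.92, Shb at −0.91, Hyou1 at −0.68, Stk24 at −0.65, the actin regulator Cald1 at −0.62 and Klhl30 at −0.54. Clock, a core clock gene, had effects of −0.45 in TAC and 0.47 in sham, and Klhl30 had −0.12 and 0.42, neither of them called in TAC.

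In sham hearts alone 332 gave 1 called gene (0.00712%), the embryonic myosin gene Myh3. It was at 6.54, 7.15 and 6.27 CPM in Sham_332 replicates 1 to 3 and at 0.313 CPM or less in the other 5 sham libraries. Those replicates 1 to 3 were the only libraries on lane L003, so lane and 332 cannot be told apart in first-run sham hearts. There were 685 at an unadjusted p under 0.05 (4.88%), and DESeq2 called 5. None of the 60 genes was called there and 17 of 60 had the same sign. The sham comparison rests on 5 and 3 libraries with a median SE of 0.138, against 0.112 in TAC, so its smaller count does not show that the effects differ. Of the 60 genes 6 were among the 9 whose effect differed.

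The number of calls depended on single libraries, while the signs of the 60 genes did not. These genes were chosen by their p on the same libraries, so their kept signs are not independent support. Without 1 library at a time the count ran from 22 to 94, and 17 genes were called in all 10 such fits: Smurf2, Ypel2, Arid5b, Tspan4, Chac1, Cald1, Manf, Arl4d, Kcnh2, Gramd1b, Sh3pxd2b, Shb, Fbxo30, Smim5, Cx3cr1, Rgma and Pakap. Of the 60 genes, 58 could be tested in each run alone and had the same sign in both, with 3 calls in the first run alone and 1 in the second. In all, 186 genes (1.32%) had ranges apart between TAC_332 and TAC_vehicle, 39 of them among the 60.

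**Figure D5:**
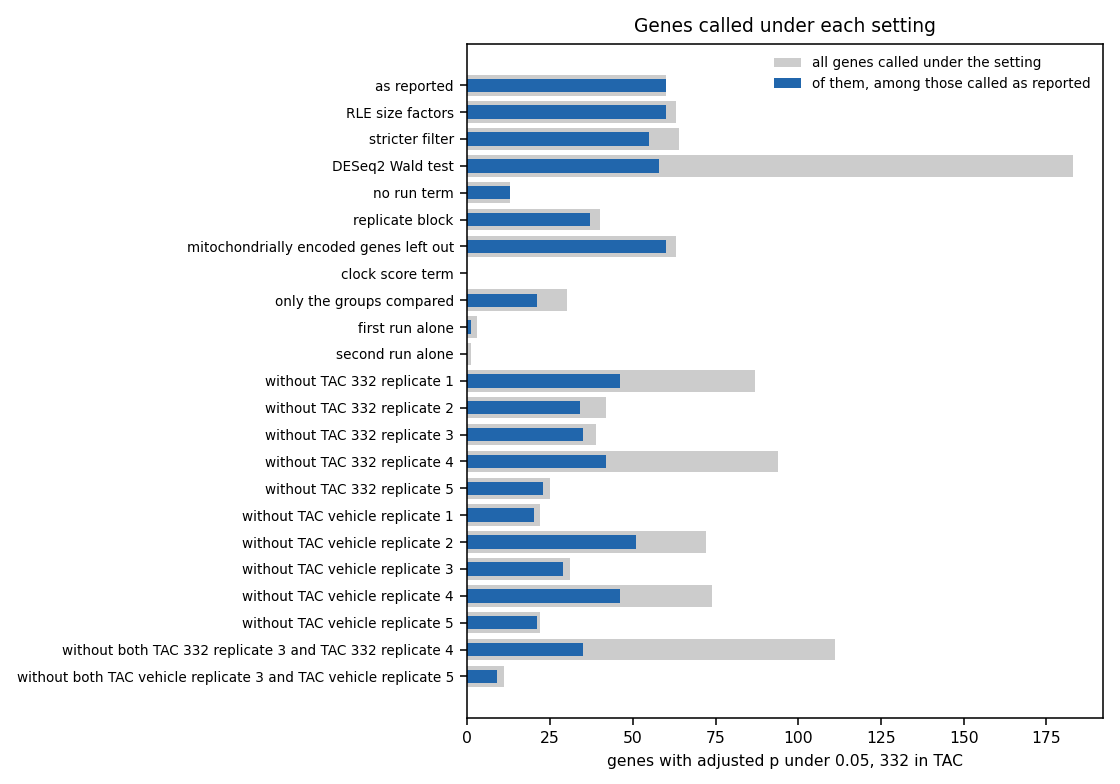
Number of genes with an adjusted p under 0.05 for 332 in TAC (x axis) under each setting of the analysis (y axis); grey bars count all genes called under the setting and blue bars those also among the 60. The count is 183 with DESeq2, 13 without the run term, 0 with the clock score and 11 without TAC_vehicle replicates 3 and 5; the setting without a filter on low counts (671) is not drawn.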

How the data were processed

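RNA from mouse left ventricle was sequenced from poly(A) libraries (TruSeq v2, which does not mark strand), per the labels' protocols. The authors deposited 1 table per library with estimated counts (NumReads) and TPM for each transcript, per the file headers. Reads were handled with fastp, Salmon and DESeq2 per the submitters' processing notes; versions and build are not given in the sources used here. Estimated counts of 140790 transcripts were summed here to 54307 genes, 28190 of them without a count, and rounded, since 7.43% of the values were not whole by more than 1e-06.

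The 18 mouse libraries were fitted together as 4 groups with a run term in edgeR 4.0.16 (R 4.3.3): filterByExpr with a minimum count of 10, TMM scaling (factors 0.884 to 1.15), and the robust quasi-likelihood F-test, adjusted by Benjamini-Hochberg over 14047 genes. The biological coefficient of variation was 0.117. SEs are the log2 change divided by the square root of F. CPM use TMM-scaled library sizes.

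The members, the 45 gene lists and the clock score were chosen with earlier results of these data known. The text names genes by 4 rules: of the called genes whose groups do not overlap and average 5 CPM or more, the 12 that rose most and the 12 that fell most, up to 4 members of each list with at least 3 called, a fixed set of 16, and up to 6 differences of effects in each direction. Alternatives were RLE size factors, no filter, a minimum count of 50, DESeq2 1.42.0, no run term, the replicate number as a block, mitochondrially encoded genes left out, a clock score term, only the groups compared, each run alone and each library left out. Chosen after seeing the data were pairs of libraries left out and DESeq2 with the clock score. The fit was tested on simulated data with known changes in the TAC_332 libraries. It recovered 56% of 100 genes changed by 0.5 on the log2 scale and 88% of 100 changed by 1. Of its 147 calls 3 were false, and smaller changes were not simulated. Counts were drawn independently for each gene, so variation that many genes share within a library was not simulated. The count of false calls holds for that setting only. The rat libraries were not used here, and a gene of the marker lists is not reported here.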

Additional observations from a re-analysis of the deposited data

Results flagged for a closer look

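In 234 groups of 5 libraries, 15 had 1 library far from the other 4, and chance alone gives about 1 in 20 such groups. TAC_vehicle replicate 5 was the far library for 5 called genes. It was low at 18.8 CPM for Gramd1b (others 23.6 to 25.9), 10.2 for Rgma (others 14 to 14.98) and 10.7 for Ppat (others 14 to 14.51). It was high at 73.3 CPM for Pakap (others 42.1 to 48.8) and 14.8 for Creld2 (others 9.82 to 10.2). TAC_vehicle replicate 1 was high for Ppargc1a at 150 CPM (others 62.5 to 79.1) and TAC_vehicle replicate 2 low for Fcgr3 at 8.14 CPM (others 11.4 to 12.9).

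Among treated hearts, TAC_332 replicate 4 was low for Pdk4 at 164 CPM (others 343 to 414) and high for Myh7 at 5306 CPM (others 927 to 1461). TAC_332 replicate 2 was high for Dnajb4, a cytosolic chaperone gene, at 159 CPM (others 100.1 to 114) and for Abra at 114 CPM (others 70.9 to 81.01). In Sham_332, replicate 3 was low for Hyou1 at 26.9 CPM and Col1a1 at 25.9 CPM, replicate 5 for Esrrg at 31.1 CPM and replicate 4 for Ctsc, a lysosomal protease gene, at 24.1 CPM.

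For 9 genes the test of the difference between the 332 effect in TAC and in sham passed. The log2 differences were 1.36 for Slc46a3, 0.94 for Tspan4, 0.64 for Gramd1b, −0.92 for Clock, −0.91 for Shb, −0.68 for Hyou1, −0.65 for Stk24, −0.62 for Cald1 and −0.54 for Klhl30.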

How the results depend on the processing

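The sign of each of the 60 genes was kept in all alternatives in which it was tested, all of which used the libraries that chose these genes. RLE size factors gave 63 calls (60 of the 60), a stricter filter 64 (55 of the 55 tested), and leaving out mitochondrially encoded genes 63. Counts for 332 in TAC (all, higher, lower) were 671, 286 and 385 without the filter (59 of the 60). They were 183, 61 and 122 with DESeq2 (58 of the 60) and 13, 5 and 8 without the run term (13 of the 60). With only the groups compared they were 30, 8 and 22 (21 of the 58 tested). The first run alone gave 3, 0 and 3 (1 of the 58 tested) and the second 1, 1 and 0 (0 of the 60). With the clock score term they were 0, 0 and 0 (0 of the 60). Without TAC_332 replicates 3 and 4 there were 111, 59 of them higher, and 35 of the 60 were among them. Without TAC_vehicle replicates 3 and 5 there were 11, 5 and 6 (9 of the 59 tested). Leaving out single libraries gave 22 to 94 calls, 9 to 38 higher and 13 to 59 lower. The count was 22 without TAC_vehicle replicate 1 or 5, 25 without TAC_332 replicate 5, 31 without TAC_vehicle replicate 3, 39 without TAC_332 replicate 3, and 94 without TAC_332 replicate 4; the cause was not tested.

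For the difference of effects there were 521 calls without the filter, 15 with the stricter one, 87 with DESeq2, 0 without the run term, 0 with the clock score, 16 without TAC_332 replicates 3 and 4, 0 without TAC_vehicle replicates 3 and 5, and 0 to 25 with single libraries left out. For 332 in sham the counts were 191, 5, 0 and 28 without the filter, with DESeq2, without the run term and with only the groups compared, and 0 to 2 with single libraries left out. TAC in vehicle hearts gave 47 calls with the clock score, 2353 without TAC_vehicle replicates 3 and 5, and 2437 to 3747 with single libraries left out.

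Replicate numbers did not pair the libraries: same-numbered TAC libraries correlated at −0.0445 to 0.32 in their deviations from group means. With the replicate block there were 40 calls, 24 of them lower, and 37 of the 60 were among them. At this depth and number of libraries, an absent call does not show that a gene did not change.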
